A study of Mus musculus with 10 samples.

Results

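The mitochondrial ribosomal protein genes were followed under 4 glucocorticoids in RAW264.7, a mouse cell line with macrophage features. They were taken by name, as every probe that is not a control and whose gene name on the array begins with Mrpl or Mrps followed by a digit. This gave 77 genes, 47 named for the large subunit and 30 for the small one, on 100 of 55681 probes, out of 36315 gene names on the array. Of these genes 75 could be tested, among 18056 genes tested in all. The rule uses no measured value, though the group of genes was picked with earlier results of these data known.

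RNA was measured on 10 single-colour arrays in 5 groups of 2: Dex (dexamethasone), FF (fluticasone furoate), VSG22, VSGC12 and EtoH. Each glucocorticoid was given at 100 nM, LPS (lipopolysaccharide, from the bacterial cell wall, a strong stimulus of macrophages) followed 1 hour later at 1 µg/ml, and cells were harvested for RNA after 16 hours. EtoH is read here as the solvent without glucocorticoid, and the labels do not say whether these cells received LPS, which limits every comparison with them. The labels likewise do not say whether the arrays of a group came from separate cultures, so the p-values measure only the spread between these samples, and the small number of arrays limits the precision. VSG22 and VSGC12 are known here by code name only. All macrophage markers listed (9 of 9, among them Cd68, Csf1r and Adgre1) were measured. Of the markers of other cells, 0 of 3 for B cells and 0 of 4 for epithelium were well above background, 1 of 4 for T cells (Cd3e), 2 of 4 for fibroblasts (Dcn and Lum) and 1 of 3 for endothelium (Kdr, which fell) were, and so were 3 of the 4 on the array for neutrophils and mast cells (Elane, Camp and Tpsb2). In the last list 2 rose and 1 fell, Mpo was not well above background, and its summed level, in multiples of the array's 75th percentile, was 38 to 137 in the glucocorticoid arrays, against 30.6 to 39.5 in EtoH. For the macrophage list, of which 3 rose and 2 fell, the summed level was 624 to 694, against 523 to 524 in EtoH, and the part of either list in the results was not tested.

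The mitochondrial ribosome translates the few messenger RNAs encoded by mitochondrial DNA, which specify core subunits of the respiratory chain and of ATP synthase. All of its proteins are encoded in the nucleus, made in the cytosol and imported. Part of them descend from bacterial ribosomal proteins and part are found in mitochondrial ribosomes alone. Glucocorticoids act through the glucocorticoid receptor, a nuclear receptor that changes transcription and dampens the inflammatory response of macrophages.

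The promoters of 67 of the 77 genes were found in the RefSeq table for GRCm38.p6, as 73 promoters of 300 bases each. Several are shown for the genes the results turn on, from 120 bases before to 30 after the annotated start, 5′ to 3′ on the gene's strand. Mrpl35, Mrpl3, Mrpl36, Mrps27 and Mrps11 rose under the glucocorticoids, and Mrpl14 and Mrpl9 fell. Capitals mark matches to the motifs described further on: the ETS core in Mrpl3 and Mrps27, YY1 in Mrpl36, Mrps27 and Mrps11, the E-box in Mrpl36 and NRF1 in Mrpl14 and Mrpl9.
Mrpl35 (chr6:71823755-71823904, minus strand): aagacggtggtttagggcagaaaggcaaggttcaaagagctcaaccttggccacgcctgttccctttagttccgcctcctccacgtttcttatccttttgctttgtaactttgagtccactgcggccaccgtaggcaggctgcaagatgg
Mrpl3 (chr9:105053148-105053297, plus strand): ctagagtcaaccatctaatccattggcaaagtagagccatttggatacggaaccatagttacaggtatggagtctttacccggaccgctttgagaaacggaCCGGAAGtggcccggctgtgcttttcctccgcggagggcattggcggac
Mrpl36 (chr13:73330889-73331038, plus strand): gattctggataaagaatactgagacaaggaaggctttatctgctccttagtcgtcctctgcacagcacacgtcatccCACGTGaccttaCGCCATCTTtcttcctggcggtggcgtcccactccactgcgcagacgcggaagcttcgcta
Mrps27 (chr13:99344666-99344815, plus strand): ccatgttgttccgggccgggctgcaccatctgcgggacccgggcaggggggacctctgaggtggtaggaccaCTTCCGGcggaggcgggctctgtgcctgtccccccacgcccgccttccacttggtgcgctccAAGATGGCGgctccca
Mrps11 (chr7:78783011-78783160, plus strand): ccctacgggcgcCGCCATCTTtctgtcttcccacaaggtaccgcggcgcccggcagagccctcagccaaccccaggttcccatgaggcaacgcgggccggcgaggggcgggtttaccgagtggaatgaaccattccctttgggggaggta
Mrpl14 (chr17:45686229-45686378, plus strand): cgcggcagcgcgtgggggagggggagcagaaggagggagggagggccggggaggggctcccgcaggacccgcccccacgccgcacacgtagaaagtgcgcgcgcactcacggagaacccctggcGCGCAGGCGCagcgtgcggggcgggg
Mrpl9 (chr3:94443216-94443365, plus strand): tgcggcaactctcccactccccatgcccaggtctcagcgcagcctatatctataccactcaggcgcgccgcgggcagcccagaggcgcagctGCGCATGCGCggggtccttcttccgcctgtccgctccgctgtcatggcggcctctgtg

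Most of the mitochondrial ribosomal protein genes were higher with a glucocorticoid than with EtoH, by modest amounts. For the mean of the 4 glucocorticoids against EtoH, 40 of the 75 rose (53.3%, where 21.6% of all genes did) and 3 fell (22.5% of all genes), by limma with Benjamini-Hochberg adjustment over all genes and a threshold of 0.05. In either direction 43 were called, where 44.2% of all genes were. The median log2 change of the members was 0.25, against 0.00 over all genes, and their range was -0.29 to 1.13. Estimates were above 0 for 65 of the 75, as for 49.6% of all genes. With each array's median subtracted in place of its 75th percentile, the members' median was 0.37 against 0.12 over all genes, and 17 members were called (20.8% of all genes), all of them higher. Without the filter on dim probes 25 of 77 were called (13.6% of all genes). The 95% interval of a member extended 0.18 to either side of its estimate at the median, so changes much smaller than that were not detectable with these arrays. In bulk RNA, a change in the share of a kind of cell and a change in RNA per cell cannot be told apart.

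**Figure D1:**
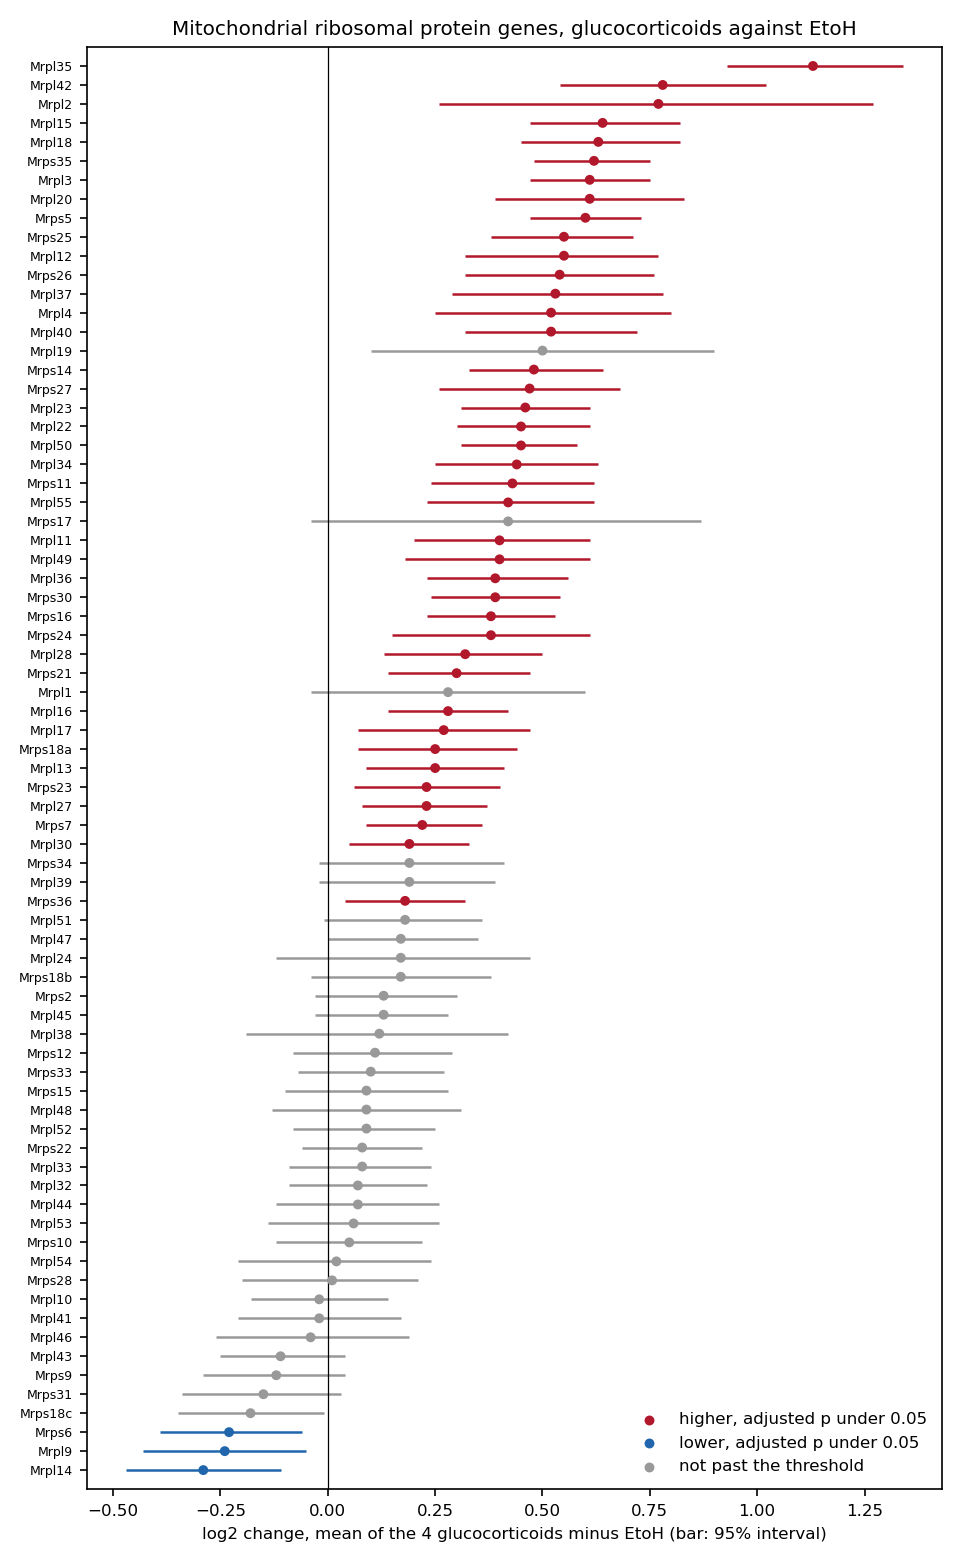
Log2 change of each of the 75 tested genes (points) for the mean of the 4 glucocorticoids minus EtoH, with 95% intervals (bars), sorted by size. Red genes rose (40), blue genes fell (3) and grey genes did not pass the threshold. Mrpl35 stands highest at 1.13 and Mrpl14 lowest at -0.29.

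**Figure D2:**
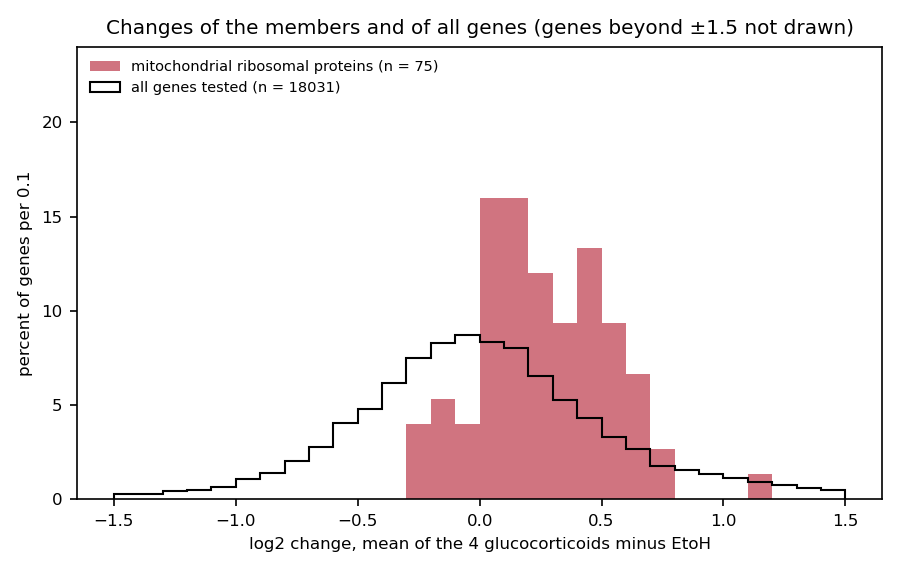
Share of genes (percent per bin of 0.1) by log2 change for the mean of the 4 glucocorticoids minus EtoH, for the 75 members (filled) and for all 18031 genes with a value in that comparison (line). The members lie mostly above 0, with a median of 0.25, and all genes are centred on 0.00.

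Levels are given as log2 of the processed signal relative to the array's own 75th percentile, and levels of different probes are not set against each other. Mrpl35, a large subunit protein with a bacterial counterpart, stood at -0.36 and -0.55 in the Dex arrays, -0.44 and -0.43 in FF, -0.32 and -0.41 in VSG22, -0.48 and -0.62 in VSGC12, against -1.48 and -1.68 in EtoH. Every glucocorticoid array lay above both EtoH arrays, and the Dex arrays overlapped the range of each other glucocorticoid. Its log2 change was 1.13 ± 0.08 (SE), a 2.19-fold higher level, with an adjusted p of 0.00012. The probe lies at chr6:71765277-71765336 on the minus strand of mm9. Mrpl42, found in mitochondrial ribosomes alone, stood at 2.47 and 2.34 in Dex, 2.66 and 2.32 in FF, 2.81 and 2.75 in VSG22, 2.80 and 2.63 in VSGC12, against 1.82 and 1.82 in EtoH. All glucocorticoid arrays were again above EtoH, with a log2 change of 0.78 ± 0.10 and an adjusted p of 0.0012. Mrpl2, whose bacterial counterpart helps build the peptidyl transferase centre, stood at 7.11 and 8.01 in Dex, 7.58 and 7.76 in FF, 6.95 and 7.12 in VSG22, 7.31 and 7.48 in VSGC12, against 6.57 and 6.72 in EtoH. Its arrays did not overlap with EtoH either, but the Dex arrays differed from each other by more than VSG22 differed from EtoH. The log2 change of Mrpl2 was 0.77 ± 0.21, with an adjusted p of 0.025.

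Further large subunit proteins with bacterial counterparts rose by about the same amount. Mrpl15 ranged from 4.69 to 5.06 with a median of 4.88 over the 8 glucocorticoid arrays, against 4.25 and 4.23 in EtoH, a log2 change of 0.64 ± 0.07 (adjusted p 0.00076). Mrpl18, whose bacterial counterpart binds 5S ribosomal RNA, ranged from 4.42 to 4.73 with a median of 4.60, against 3.94 and 3.97 in EtoH, and rose by 0.63 ± 0.08 (adjusted p 0.00093). For both genes the glucocorticoid and EtoH arrays did not overlap. Mrpl3 ranged from 5.97 to 6.11 with a median of 6.00, against 5.36 and 5.44 in EtoH, and rose by 0.61 ± 0.06. Mrpl20 ranged from 6.42 to 6.61 with a median of 6.57, against 6.08 and 5.76 in EtoH, and rose by 0.61 ± 0.09. The EtoH arrays of Mrpl20 were further apart than its glucocorticoid arrays, yet both lay below them. Mrpl12, the stalk protein that in mammals also binds the mitochondrial RNA polymerase, rose by 0.55 ± 0.10 (adjusted p 0.0042).

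Small subunit genes rose as well. Mrps35 ranged from 2.92 to 3.05 with a median of 2.98 over the glucocorticoid arrays, against 2.32 and 2.40 in EtoH, and rose by 0.62 ± 0.06 (adjusted p 0.00028). Mrps5 ranged from 2.82 to 3.01 with a median of 2.87, against 2.29 and 2.28 in EtoH, and rose by 0.60 ± 0.06 (adjusted p 0.00032). In both genes the glucocorticoid arrays were close to one another and clear of EtoH. Mrps25 ranged from 5.45 to 5.87 with a median of 5.76, against 5.22 and 5.10 in EtoH, and rose by 0.55 ± 0.07.

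Over all members, 42 of the 75 had all 8 glucocorticoid arrays above both EtoH arrays, as did 22.9% of all genes. The opposite order, all 8 below both, held for 4 members, as for 24.7% of all genes: Mrpl14, Mrpl9, Mrps6 and Mrps9. Mrpl14, a protein of the interface between the subunits, stood at 5.59 and 5.58 in Dex, 5.74 and 5.51 in FF, 5.65 and 5.60 in VSG22, 5.80 and 5.77 in VSGC12, against 6.00 and 5.89 in EtoH. Its log2 change was -0.29 ± 0.08, with an adjusted p of 0.02. Mrpl9 ranged from 2.34 to 2.66 with a median of 2.48 over the glucocorticoid arrays, against 2.75 and 2.74 in EtoH, and changed by -0.24 ± 0.08 (adjusted p 0.048). Mrps6 ranged from 4.96 to 5.16 with a median of 5.04, against 5.25 and 5.29 in EtoH, and changed by -0.23 ± 0.07 (adjusted p 0.034). These 3 decreases passed the threshold, and none of the 3 did so when each array's median was subtracted in place of its 75th percentile, where 0 members fell. With the slide as a block the adjusted p was 0.014 for Mrpl14, 0.029 for Mrps6 and 0.058 for Mrpl9, whose call was thus lost. Over the 21 alternatives the call was lost in 12 for Mrpl9, 10 for Mrps6 and 4 for Mrpl14, leaving out either EtoH array among them. Mrps9 had a log2 change of -0.12 (adjusted p 0.18), Mrps18c of -0.18 (0.081), Mrps31 of -0.15 (0.15) and Mrpl43 of -0.11 (0.2). Mrpl46, Mrpl41 and Mrpl10 had changes of -0.04, -0.02 and -0.02, within their intervals of 0.

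**Figure D3:**
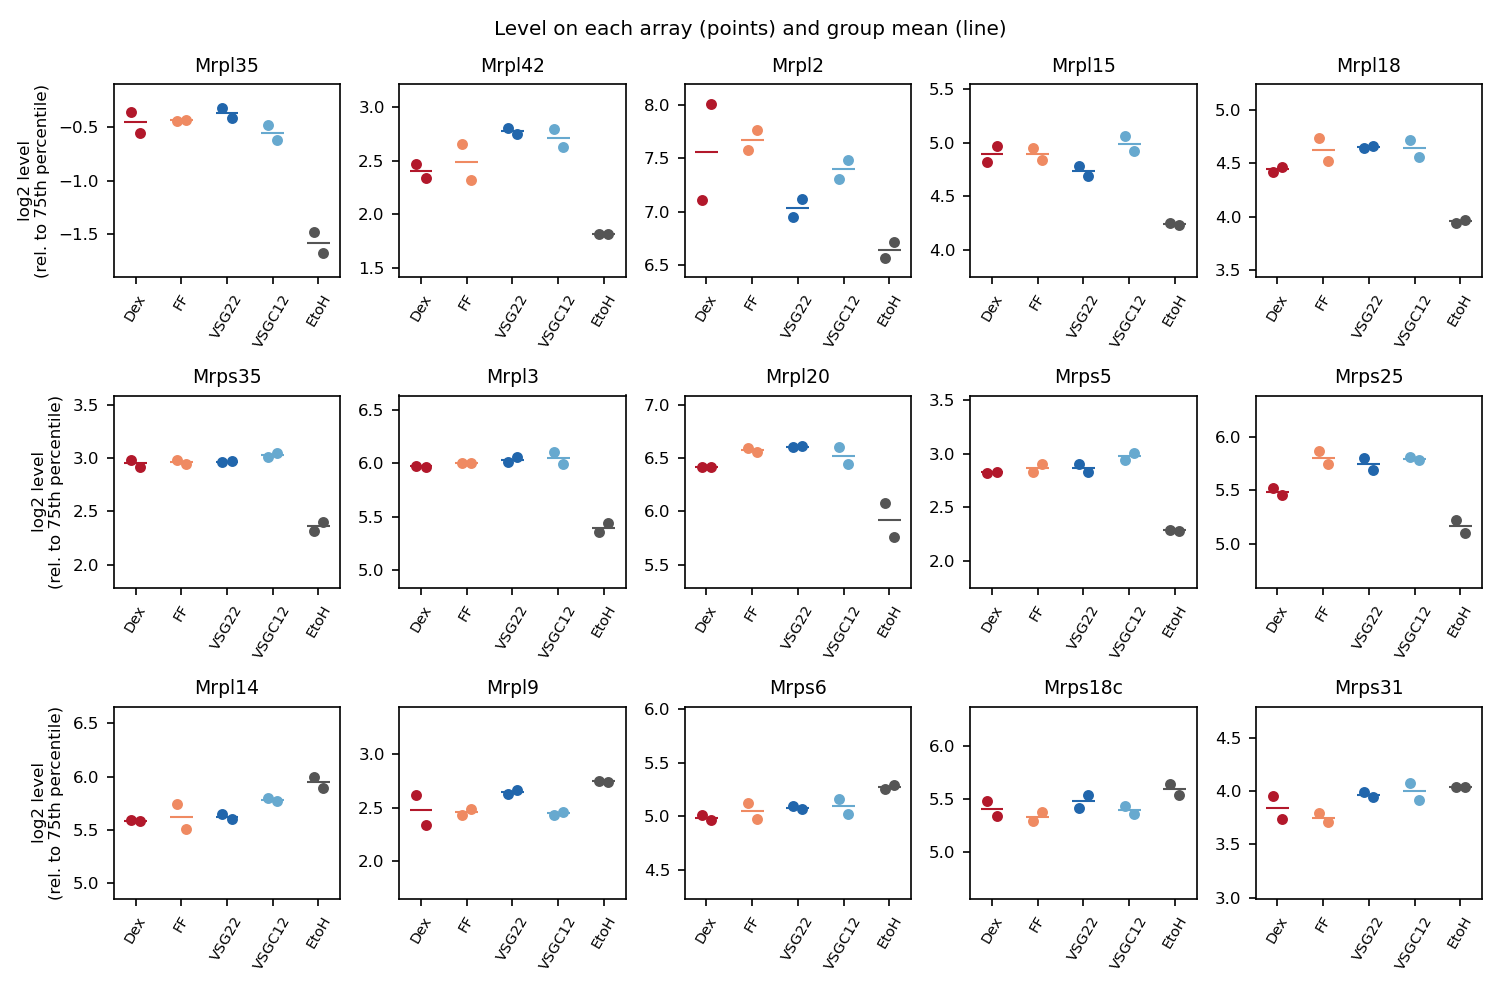
Level on each array (points; log2 of the processed signal relative to the array's 75th percentile) and group mean (line) of 15 genes, in the order Dex, FF, VSG22, VSGC12 and EtoH with 2 arrays each. The genes with the largest increases fill the upper rows and those with the lowest changes the bottom row. In the upper rows all glucocorticoid arrays lie above both EtoH arrays.

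A pair of members had large estimates but did not pass, and in each 1 array lay far from its partner. Mrpl19 ranged from 4.12 to 4.34 with a median of 4.22 over the glucocorticoid arrays, against 3.37 and 4.09 in EtoH, a log2 change of 0.50 (adjusted p 0.05). The EtoH arrays of Mrpl19 were further apart than the 8 glucocorticoid arrays together. Mrps17 stood at 3.02 and 3.85 in Dex, 4.12 and 4.01 in FF, 4.11 and 3.98 in VSG22, 4.09 and 3.96 in VSGC12, against 3.53 and 3.42 in EtoH. A single Dex array was below both EtoH arrays and the other 7 glucocorticoid arrays were above them, and the log2 change of 0.42 had an adjusted p of 0.12. In a like fit over all probes that passed, a second probe of Mrps17 had a change of 0.48 with an adjusted p of 0.0043.

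By place in the ribosome, large subunit proteins with a bacterial counterpart had the highest median, 0.35, with 19 rising, 2 falling and 7 not called of 28 tested. Large subunit proteins specific to mitochondria had a median of 0.15, with 8 rising, 0 falling and 12 not called of 20. Small subunit proteins with a bacterial counterpart had a median of 0.17, with 7 rising, 1 falling and 9 not called of 17. Small subunit proteins specific to mitochondria had a median of 0.23, with 5 rising, 0 falling and 4 not called of 9. The difference between these subgroups was not tested. In the same comparison 21.6% of all genes rose and 22.5% fell. Mrps36, in none of the 4 subgroups and known as a component of the oxoglutarate dehydrogenase complex, rose by 0.18 ± 0.06 (adjusted p 0.042). The 0 of each subgroup is by limma at an adjusted p under 0.05. Mitoribosomal proteins that carry other names on the array rose in part, with 4 of 7 rising and 0 falling. Ptcd3 rose by 0.62, Aurkaip1 by 0.46, Dap3 by 0.38 and Mrpl57 by 0.31. Mrpl57 is its name in the gene table, and its name on the array does not match the rule.

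Other genes of mitochondrial gene expression rose in part, where 21.6% of all genes rose and 22.5% fell. Whether any of these lists differs from all genes was not tested. Of 19 mitochondrial aminoacyl-tRNA synthetases, which charge transfer RNAs for this ribosome, 9 rose and 1 fell, with a median of 0.26; Rars2 rose by 0.73 and Tars2 by 0.68. Of 16 mitochondrial translation factors 6 rose and 1 fell, with a median of 0.13, Guf1 rising by 1.14, Lrpprc, which stabilises mitochondrial messenger RNA, by 0.83, and the initiation factor Mtif3 falling to a change of -0.43. Of 23 genes of ribosome assembly and ribosomal RNA modification 7 rose and 2 fell, with a median of 0.13; Tfb1m, a ribosomal RNA methyltransferase, rose by 1.04, Mtg1 by 0.68, and Mterf4 changed by -0.52. Among 8 genes of mitochondrial RNA processing 4 rose and 2 fell, led by Elac2 at 1.00. Among 11 genes of mitochondrial DNA transcription and maintenance 4 rose and 0 fell, with Mgme1 at 0.84 and Tfam at 0.28. Of 23 protein import genes, which carry the ribosomal proteins into the organelle, 15 rose and 0 fell, with a median of 0.37, Timm10 rising by 0.92 and Tomm70a by 0.74.

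Of 80 cytosolic ribosomal proteins, which build the ribosome outside the organelle, 13 rose and 5 fell, with a median of 0.07. Both of these shares were below those of all genes, 21.6% and 22.5%. Of 9 regulators of mitochondrial biogenesis 2 rose and 2 fell, near the shares of all genes, with a median of -0.05. Myc changed by -1.77, Ppargc1b by -0.73 and Gabpb1, a subunit of the ETS factor GABP, by 0.44. Genes of proliferation rose more than any of the lists given so far: 16 of 17 rose and 0 fell, with a median of 2.07, Ccna2 by 4.61 and Plk1 by 4.09. Whether proliferation has a part in the change of the ribosomal proteins was not tested.

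**Figure D4:**
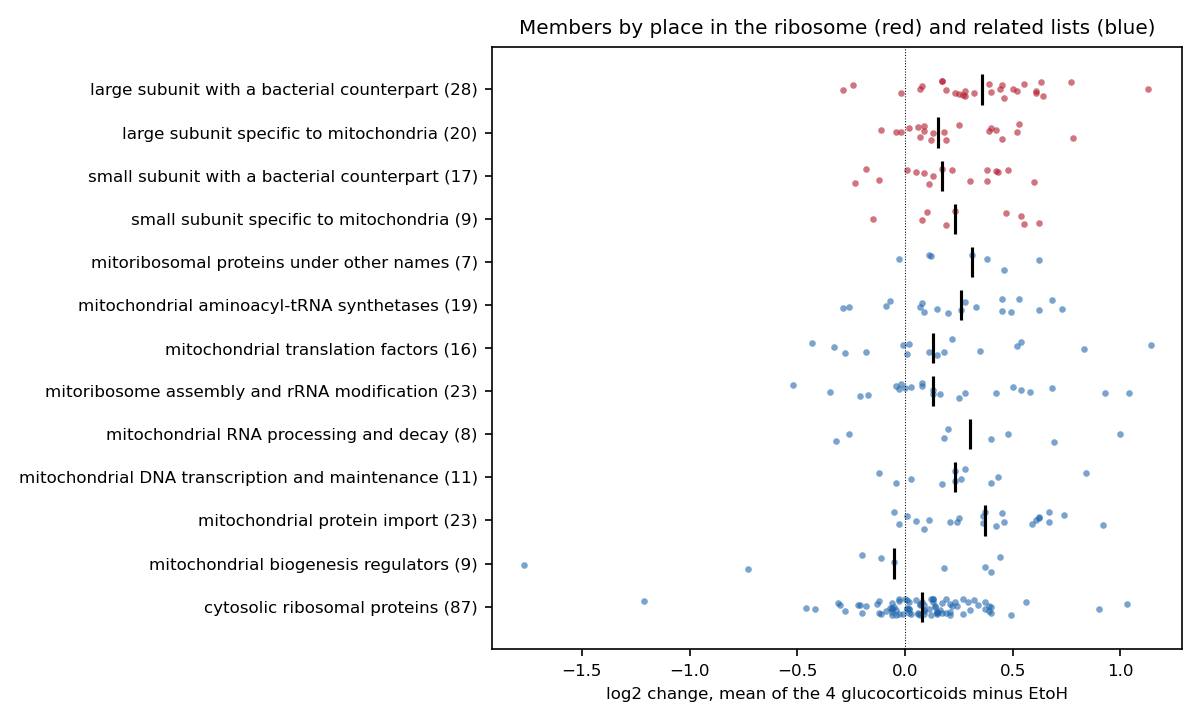
Log2 change for the mean of the 4 glucocorticoids minus EtoH of each tested gene (points) and the median of its list (bar), with the number tested in brackets. Members are split by place in the ribosome (red) and related lists are in blue. Medians run from -0.05 for biogenesis regulators to 0.37 for protein import. The cytosolic list here includes 7 tested genes with similar names, among them Rpp40.

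The 4 glucocorticoids were given at the same dose and for the same time, and each was set against the same EtoH arrays. With Dex 28 members rose and 2 fell (16.5% and 15.7% of all genes), with a median of 0.21. With FF 32 rose and 1 fell (17.9% and 19.1%), with a median of 0.29. With VSG22 31 rose and 1 fell (16.1% and 14.5%), with a median of 0.28. With VSGC12 35 rose and 0 fell (17.2% and 18.3%), with a median of 0.27. Mrpl35 had the highest change with each, 1.13 with Dex, 1.15 with FF, 1.22 with VSG22 and 1.03 with VSGC12. The next were Mrpl2 (0.91) and Mrpl37 (0.79) with Dex, Mrpl2 (1.02) and Mrpl4 (0.68) with FF, Mrpl42 (0.96) and Mrpl18 (0.69) with VSG22, and Mrpl42 (0.90) and Mrpl15 (0.76) with VSGC12. Mrpl14 fell with Dex (-0.36), FF (-0.32) and VSG22 (-0.32), and Mrps6 fell with Dex (-0.29). These counts depend on the scaling, the filter and single arrays, and the shares in brackets are those of all genes called in either direction. With each array's median subtracted, 3 of the 75 members were called with Dex (11.2%), 2 with FF (13.8%), 2 with VSG22 (9.89%) and 9 with VSGC12 (13.1%). Without the filter on dim probes, 7 of 77 were called with Dex (6.52%), 12 with FF (9.13%), 11 with VSG22 (7.47%) and 11 with VSGC12 (8.55%). Without EtoH replicate 1, 13 members were called with Dex (16.5%), 20 with VSG22 (18.8%) and 21 with VSGC12 (22.2%). Without EtoH replicate 2, 12 were called with Dex (18%), 18 with FF (21.7%), 17 with VSG22 (18.7%) and 20 with VSGC12 (21.3%). Dex had 14 called members without its replicate 2 (20.5%), FF 19 without its replicate 1 (24.2%), VSG22 11 without its replicate 1 (16%) and 16 without its replicate 2 (18%), and VSGC12 18 (24.6%) and 23 (22.8%) likewise. In several of these settings the members' share called in either direction was near or below that of all genes. With the median subtracted or without the filter, every called member was higher, against 47.7% to 71.4% of the calls over all genes. Nearly all members called without 1 array were higher too. Shares of higher calls alone are not set out here. Settings without 1 array that changed a count less, such as FF without EtoH replicate 1, are not listed, and ranges over all arrays are given at the end.

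**Figure D5:**
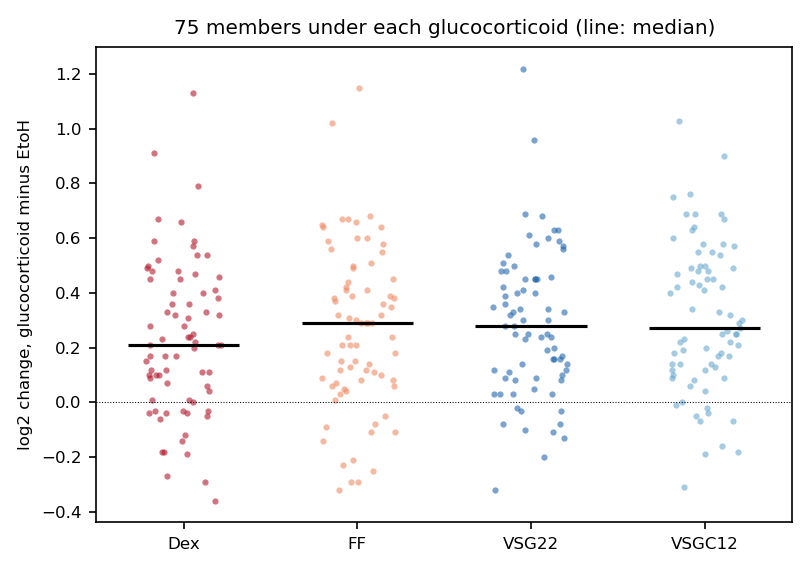
Log2 change of the 75 members (points) and their median (line) for each glucocorticoid minus EtoH. The medians are 0.21 with Dex, 0.29 with FF, 0.28 with VSG22 and 0.27 with VSGC12.

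No member was called between the glucocorticoids. A moderated F-test among the 4 called 0 members (0.255% of all genes) and gave an unadjusted p under 0.05 for 2 (13.5% of all genes), Mrps25 and Mrps11. In each of the 6 pairs limma called 0 members. The share of all genes called was 0.371% for FF minus Dex, 0.554% for VSG22 minus Dex, 0.393% for VSGC12 minus Dex, 0% for VSG22 minus FF, 0.00555% for VSGC12 minus FF and 0% for VSGC12 minus VSG22. Unadjusted p-values under 0.05 were reached by 5 members for FF minus Dex (14.4% of all genes), 11 for VSG22 minus Dex (16.7%), 7 for VSGC12 minus Dex (14.8%), 3 for VSG22 minus FF (9.47%), 2 for VSGC12 minus FF (4.2%) and 2 for VSGC12 minus VSG22 (7.15%). Adjusted over the 6 pairs together, the smallest p of a member was 0.3. It belonged to Mrps11, lower in FF than in Dex by a log2 difference of -0.38 (95% interval -0.63 to -0.14). Mrps11 stood at 1.96 and 1.97 in Dex, 1.70 and 1.46 in FF, 1.56 and 1.66 in VSG22, 1.81 and 1.66 in VSGC12, against 1.31 and 1.27 in EtoH. Mrps25 was higher in FF than in Dex by 0.32 (0.11 to 0.53). The interval of a pair extended 0.23 to either side at the median, so for most members smaller differences between compounds were not detectable with these arrays. This interval is not adjusted over genes, and larger differences, such as that of Mrps11, were not called either. The absence of calls therefore does not exclude them. Leaving out either Dex array brought a few calls among the members, but the F-test then called a larger share of all genes too. A lone Dex array stood for its group in these fits. The share of all genes called over the pairs was not computed for them.

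The 2 slides each held 1 array of every group. Within slide 1 the median change of the members was 0.28, with 68 of 75 above 0, and within slide 2 it was 0.24, with 61 above 0. The calls rest on both EtoH arrays. For the mean of the 4 glucocorticoids, 25 of the 75 members were called without EtoH replicate 1 (26.4% of all genes), with a median change of 0.25, and 22 without EtoH replicate 2 (25.9%), with a median of 0.26. For 13 of the members that rose, the call held under all 21 alternatives tried: Mrpl35, Mrpl42, Mrpl15, Mrpl18, Mrpl3, Mrpl20, Mrpl12, Mrpl37, Mrpl40, Mrps35, Mrps5, Mrps26 and Mrps14. The share of all genes whose call held likewise was not computed, so this count does not set the members apart.

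Single probes were fitted in the same way over all probes that passed, and adjusted over those probes. Of 20 members with 2 or more measured probes, 5 had every probe called, 10 some and 5 none. Among them 0 had probes called in opposite directions. The same shares over all genes with several probes were not computed. In 7 the estimates of the probes had opposite signs, among them the called members Mrpl27 (0.23 and -0.08), Mrps23 (0.23 and -0.16) and Mrps25. The probes of a gene spanned 0.18 at the median. Mrps14 had changes of 0.48 and 1.23, both called. Mrps25 had 0.55 (adjusted p 0.0012) with its brighter probe and -0.27 (0.43) with the dimmer one, and Mrpl43 had -0.11 (0.22) and -0.28 (0.017). Neither Mrpl21, well above background on 0 arrays, nor the pseudogene Mrps36-ps1, on 2 arrays, could be tested.

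In the 300 bases of each promoter, motifs were searched on both strands. The ETS core CCGGAAG was found in 32.9% of member promoters and in 8.86% of all 32851 promoters. The NRF1 motif, marked in the Mrpl14 and Mrpl9 promoters above, was found in 16.4% of member promoters and 4.6% of all, and the YY1 motif AAGATGGCG in 11% and 1.4%. The E-box CACGTG was found in 9.59% and 7.15%. Its 7 member promoters belong to 5 of the 67 genes, since overlapping promoters of Mrpl2 were each counted. The palindromic glucocorticoid response element was found in 0% and 0.475%. It is so rare that 0 matches in 73 promoters cannot show whether the members lack such sites. A match is a description of the letters only. The 8 tested members with the YY1 motif had a median change of 0.45, against 0.19 for the 58 without it. They are Mrpl35, Mrpl42, Mrpl37, Mrpl36, Mrps11, Mrps27, Mrps24 and Mrps18a, and all of them rose. Of all tested members 53.3% rose, and of all genes 21.6%. The Mrps11 match also lies downstream of the Mrpl46 start, past the 50 bases searched there. Mrpl46, with a change of -0.04, is thus counted without the motif. Differences between members with and without a motif were not tested. In Mrpl35 the match begins in the window shown and ends past it. The median was 0.23 with the ETS core and 0.28 without, 0.16 with NRF1 and 0.28 without, and 0.53 for the 5 members with the E-box and 0.23 without.

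Mrps11 and Mrpl46 are transcribed away from each other from starts 42 bases apart, so that the Mrps11 window shown also holds the start of Mrpl46. Mrps11 rose by 0.43 ± 0.08 (adjusted p 0.0056). Mrpl46 stood at 2.97 and 2.66 in Dex, 2.76 and 2.64 in FF, 2.83 and 2.92 in VSG22, 2.91 and 2.78 in VSGC12, against 2.81 and 2.88 in EtoH, with a change of -0.04 ± 0.10 (adjusted p 0.77). The glucocorticoid and EtoH arrays of Mrpl46 overlapped. In all, 22 members had a divergent neighbour with a start within 500 bases. Among the 12 pairs with both genes tested in which the member rose, the neighbour rose in 2, fell in 3 and was not called in 7. Of all genes 21.6% rose and 22.5% fell, so the neighbours' counts are near the shares of all genes. Mrpl2 rose by 0.77 while its neighbour Klc4 changed by -0.86, and Mrpl50 by 0.45 while Zfp189 changed by -0.61. Mrps7 rose by 0.22 while Gga3 changed by -0.25. Both genes rose in the pairs Mrpl27 (0.23) with Eme1 (1.84), a nuclease subunit of DNA repair, and Mrpl37 (0.53) with Cyb5rl (0.85). Mrpl14 changed by -0.29 and its neighbour Tmem63b by -0.34, both called.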

How the data were processed

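Per the file headers, the deposited files hold spot intensity from Agilent Feature Extraction 10.7.3.1, background-subtracted and detrended within an array but not scaled between arrays, with other columns of flags set by the software, also as deposited. The submitters' processing notes list limma without naming a step. Spots flagged as outliers were left out, log2 processed signals were averaged over a probe's spots, and the 75th percentile of each array's probes, controls aside, was subtracted. A probe passed if both arrays of some group had it well above background, and the brightest such probe represented a gene. Between 96.1% and 98.4% of the members' spots were well above background on an array, against 40.1% to 44.4% of all spots that are not controls, and 0 spots were saturated. The 75th percentile of the processed signal ran from 315.3 to 428.5. Bright patches held 2058 and 2885 spots of the Dex arrays, 870 and 882 of FF and at most 376 elsewhere. A spot counted if at least 3 of the 24 around it were well above background there and on no array of another group. Dim patches were not searched for.

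All 10 arrays entered 1 fit in R 4.3.3, by lmFit and eBayes of limma 3.58.1 with group as its sole term (5 residual and 1.81 prior degrees of freedom), two-sided, adjusted by Benjamini and Hochberg over all genes within a comparison. A value was missing on some array for 166 genes, 0 of them members. Levels, changes and intervals come from this fit, which was tested on simulated data. Changes given for single probes of a gene come from the like fit over all probes that passed. Probes were named from the GRCm38.p6 table, 26413 by accession, 3859 by symbol and 735 by synonym, and 24674 kept the file's name. Probe positions are the files' own, on mm9, and were not placed in exons here. Promoters and gene starts are from RefSeq, GRCm38.p6.

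Replicate numbers follow the slide. Deviations from the group mean correlated between same-numbered arrays across genes, which are no independent replicates, with r between -0.04 and 0.32, so the numbers were not taken to pair the samples.

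The members and lists were chosen with earlier results of these data known. Named are the 10 highest and 10 lowest members, the 3 highest and 3 lowest with each compound, and up to 4 genes of each related list by size of change; Mrpl19, Mrps17, Mrpl46's neighbour Mrps11, the members named for their probes, motifs or neighbours, and the neighbours themselves were picked after their values were seen. The cytosolic list is given without genes that matched its name pattern alone. Alternatives were other scalings, background correction, filters, probe rules, the replicate block and leaving out each array; scaling by the 75th percentile over spots was added after seeing the data.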

Additional observations from a re-analysis of the deposited data

Results flagged for a closer look

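A few members lay above both EtoH arrays with one glucocorticoid and below both with another. This goes by the order of the arrays only, and in the fit none of these differences passed the threshold after adjustment. How many of all genes show such an order was not counted, so it does not set the members apart. Mrpl10 was higher in VSG22 than in FF by a log2 difference of 0.19 (adjusted p 0.53). Mrpl41 was higher in VSG22 than in Dex by 0.26 (0.27) and in VSGC12 than in Dex by 0.22 (0.36). Mrps28 was higher in VSG22 than in FF by 0.27 (0.52).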

How the results depend on the processing

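No called member changed sign under any of the 21 alternatives. Subtracting each array's median moved the median of all genes to 0.12 and that of the members to 0.37, and left 17 of 75 members called for the mean of the 4 glucocorticoids (20.8% of all genes), 3 for Dex (11.2%), 2 for FF (13.8%), 2 for VSG22 (9.89%) and 9 for VSGC12 (13.1%). Of the calls over all genes 70.3% were then higher, against 49% otherwise. The members' median was 0.17 with quantile normalization (all genes -0.04) and 0.17 with the percentile over detected probes (all genes -0.09). Without a filter on dim probes, which tests more genes, 25 of 77 members were called for the mean (13.6% of all genes). The counts were then 7 for Dex (6.52%), 12 for FF (9.13%), 11 for VSG22 (7.47%) and 11 for VSGC12 (8.55%). With the replicate block 43 members were called for the mean (46.2% of all genes) and 33 for Dex (34.8%). For FF 36 were called (39.5%), for VSG22 33 (32.5%) and for VSGC12 36 (37.8%). When 1 array was left out, the share of all genes called moved too, so the ranges below do not describe members alone. Leaving out 1 array at a time gave 22 to 44 called members for the mean, 12 to 27 for Dex, 18 to 37 for FF, 11 to 30 for VSG22 and 18 to 38 for VSGC12, 0 to 1 for the F-test, 0 to 3 for the 6 pairs, and a median of 0.23 to 0.27. Leaving out Dex replicate 2 gave the F-test its 1 call and left 14 for Dex. The lowest values for the mean came without either EtoH array. A lone array was then assumed to vary like the other groups. Apart from the alternatives' own construction, the cause was not tested. With 2 arrays a group, small changes were not detectable.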
